A study of Mus musculus with 15 samples.

Results

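The genes described here make, move and sense cholesterol in CD4+CD25+ cells of mouse spleen, a sort used to collect regulatory T (Treg) cells. They are 33 genes listed by symbol: 6 mevalonate and isoprenoid enzymes, 11 squalene and sterol enzymes, 5 genes of the SREBP control machinery, 4 for acetyl-CoA thiolase and intracellular sterol transport, 2 cholesterol efflux transporters, 1 esterification enzyme and 4 fatty acid enzymes. They were listed by pathway membership, but with earlier results of these data known. Counts over the list are therefore descriptions and not tests. Each gene was read from its brightest probe set that carries a single symbol. Such a probe set was found for 31 of the 33 genes, and no value is given for Acat2 and Soat1. Of the 31, 30 passed the filter on dim genes and were tested, out of 10964 genes tested in all. The filter asks that the mean of at least 1 of the 5 groups exceeds a log2 signal of 4.96, the median probe set mean. Fads2, a fatty acid desaturase, was dim on every array, between 3.74 and 4.01, and was not tested. 29 of the 30 tested genes were above that level in all 5 groups. The exception, Lss, passed through WT 1 to 3, Ikzf4-/- and dKO only, and lay below the level in WT 4 to 6 and Ikzf2-/-.

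RNA of the sorted cells was hybridised to 15 single-colour Affymetrix arrays, and values are log2 signals, so a difference of 1 is a doubling. The 5 groups have 3 arrays each: wild-type (WT) mice, arrays 1 to 3; Ikzf4-/- mice, which lack Eos; dKO mice, which lack both Ikzf2 and Ikzf4; a further WT group, arrays 4 to 6; and Ikzf2-/- mice, which lack Helios. Helios and Eos are zinc-finger transcription factors of the Ikaros family and are found in Treg cells. All groups share the sort on CD4 and CD25 from spleen, and no treatment is recorded. The way the alleles were made, and the age, sex and strain background of the mice, are not given in the sources used here. No label says that replicate arrays came from separate mice, so the p-values measure the spread between arrays, which may be technical.

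Cells build cholesterol from acetyl-CoA by way of mevalonate, isoprenoids, squalene and lanosterol. When sterols in the endoplasmic reticulum run low, the escort protein SCAP carries the SREBP transcription factors to the Golgi, where they are cleaved and then switch on the genes of the pathway; INSIG proteins hold SCAP back when sterols are plentiful. Surplus cholesterol leaves through ABCA1 and ABCG1, whose genes answer to the oxysterol-sensing LXR receptors, and Treg cells are known to use the mevalonate pathway for their function.

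The arrays fall into 2 sets, and in the main fits each group was compared only with groups of its own set. The difference of Helios effects alone sets a difference within 1 set against a difference within the other. WT 1 to 3, Ikzf4-/- and dKO form the first set of 9 arrays, and WT 4 to 6 and Ikzf2-/- form the second set of 6. This division comes from the numbering of the WT arrays and is not stated in the labels. Arrays within the first set held exactly equal values in 2286 probe sets per pair on average, arrays within the second in 34.4, and pairs across sets in 0.0741. The Ikzf2 signal was 10.06, 9.14 and 9.22 on the Ikzf2-/- arrays against 10.25 to 10.38 on WT 4 to 6, and 10.11, 10.16 and 10.59 on the dKO arrays against 10.46 to 10.76 on WT 1 to 3. The Ikzf4 signal was no lower in Ikzf4-/- (8.13 to 8.22) or dKO (8.07 to 8.20) than in WT 1 to 3 (7.83 to 8.07). Which part of either gene was deleted is not given here, and a probe set outside it would check nothing, so the groups are named by their labels. The 10 Treg and CD4 T cell markers, which include Foxp3 as well as Ikzf2 and Ikzf4, had a mean of 10.44 to 10.58 in the first set. In the second set the mean was lowest on Ikzf2-/- 2, at 9.84, against 10.12 to 10.33 on the other arrays. The markers did not all move alike on Ikzf2-/- 2. Cd4 stood at 8.78 there against 9.42 to 9.67 on the rest of its set, and Cd3g at 11.26 against 11.05 to 11.19. For 9 B cell markers, all but 1 array of the first set averaged 4.33 to 4.47, and all but 1 of the second 4.83 to 5.61. WT 1 and Ikzf2-/- 3 stood apart, at 6.60 and 7.54. The 6 neutrophil markers averaged 7.36 and 9.79 on those arrays, and the mean of the 7 macrophage and dendritic cell markers was also highest there within each set. On Ikzf2-/- 2, Cd8b1 stood at 7.31 against 6.06 to 6.12 on the rest of its set. Cd8a stood at 4.68 there, within the 4.09 to 4.74 of the rest and under the filter level. The mean of 11 cell cycle genes was 6.89, 7.87 and 7.48 on dKO 1 to 3, 6.50 to 7.17 on Ikzf4-/- and 6.77 to 7.17 on WT 1 to 3. In the second set it was 7.16, 6.89 and 7.89 on Ikzf2-/- 1 to 3 and 6.34 to 6.71 on WT 4 to 6. The part of these markers in the differences below was not tested, except where a value without the array is given. The median spread of a gene between replicates was 0.193 (SD, log2) in Ikzf2-/- and 0.0922 to 0.110 in the other groups, so the Ikzf2-/- means are the least precise. In bulk RNA, fewer cells of a type and less RNA per cell cannot be told apart.

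Comparisons, 5 in number, were fitted across all tested genes with limma: each knockout against the WT arrays of its own set, dKO against Ikzf4-/- paired by replicate number, and the difference between both measures of Helios loss. No cholesterol or fatty acid gene passed an adjusted p of 0.05 (Benjamini-Hochberg over 10964 genes) in any of the 5 comparisons. The background was low as well. The share of all genes called was 0.0638% for Ikzf2-/- against WT 4 to 6 (7 genes), 0% for Ikzf4-/- against WT 1 to 3, 0.0638% for dKO against WT 1 to 3 (7 genes), 0.0182% for dKO against Ikzf4-/- (2 genes) and 0% for the difference of Helios effects. At an unadjusted p under 0.05, limma counted 239 genes for Ikzf4-/- (2.18% of all tested) and 690 for the difference of Helios effects (6.29%). The smallest adjusted p among the 30 genes was 0.126 for Ikzf2-/-, 1 for Ikzf4-/-, 1 for dKO against WT, 0.585 for dKO against Ikzf4-/- and 0.787 for the difference. What follows gives the values, their errors and their directions, and none of these differences passed the test. The SE of each knockout against WT is pooled over all 5 groups and is not the spread of the named arrays alone. Insig2 has an SE of 0.14 for both Ikzf2-/- and Ikzf4-/-, with SDs of 0.36 and 0.063 in these groups. Where Ikzf2-/- arrays spread more than the others, the SE and p are too small for Ikzf2-/- and too large for the first set.

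**Figure D1:**
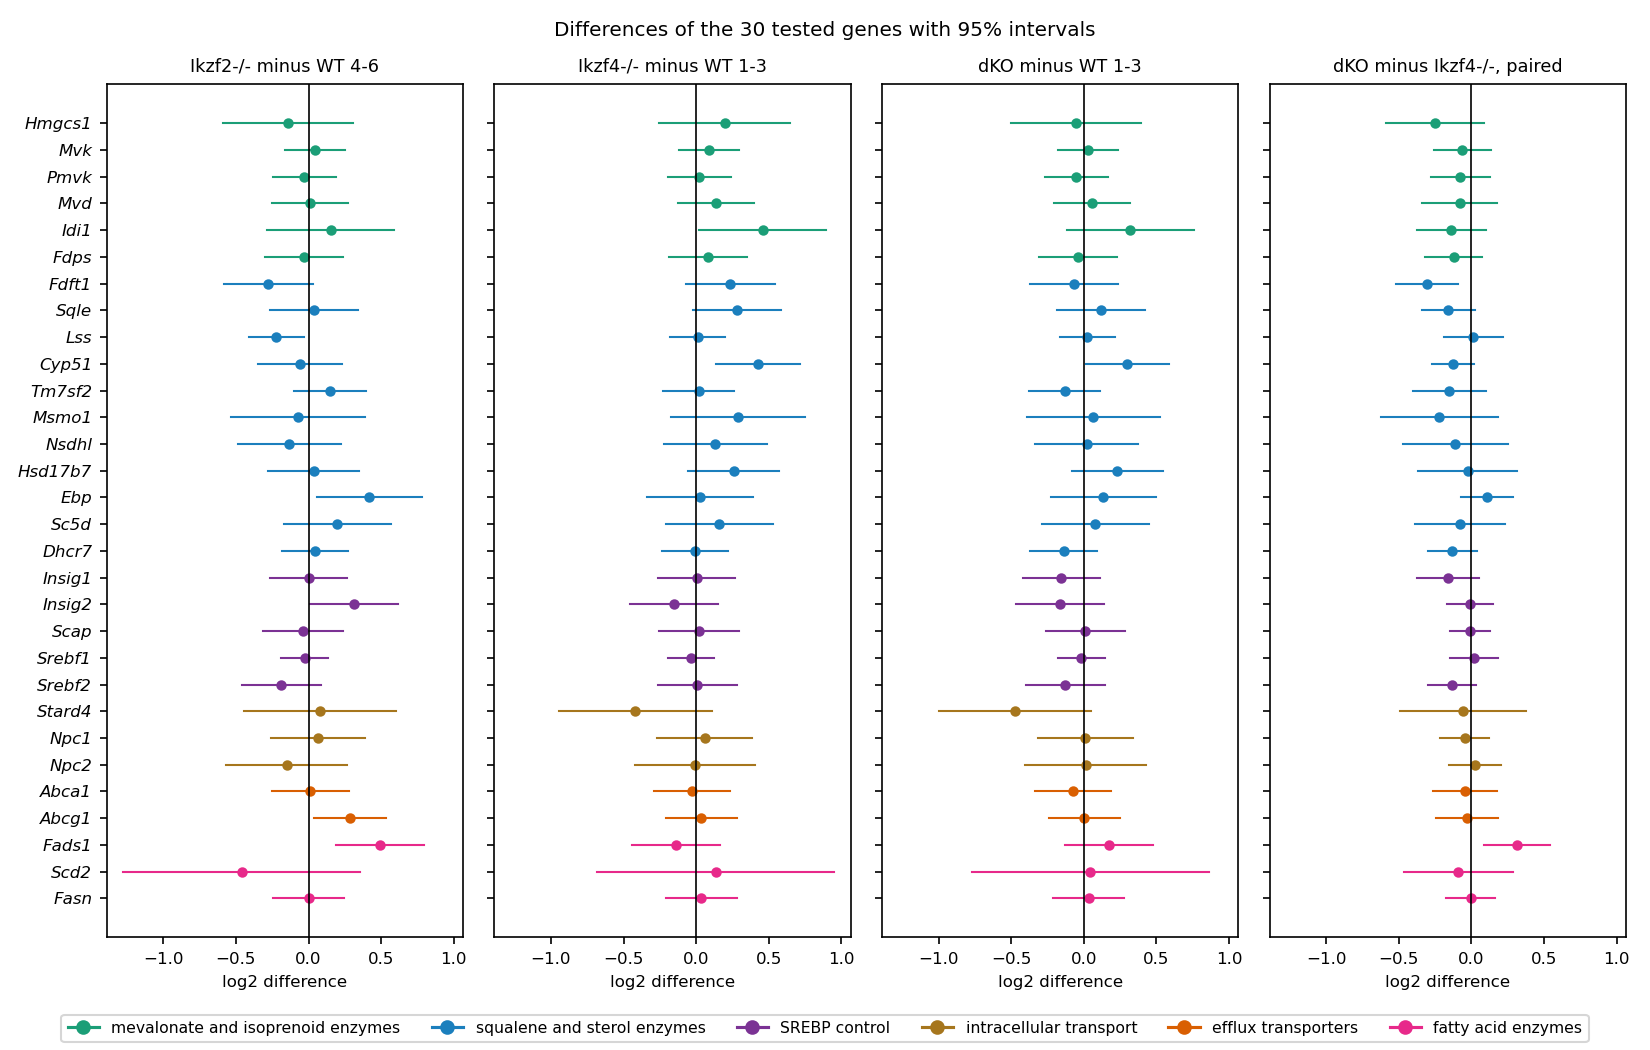
Log2 difference (horizontal axis) of each of the 30 tested genes (vertical axis, coloured by role) in the 4 group comparisons, with 95% confidence intervals from limma as bars. In the panel for Ikzf4-/- minus WT 1 to 3, 16 of the 17 synthesis enzymes lie to the right of 0, and in the panel for dKO minus Ikzf4-/-, 15 of the 17 lie to the left.

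The clearest grouping by direction was in the synthesis enzymes of Ikzf4-/- cells. All 6 mevalonate and isoprenoid enzymes and 10 of the 11 squalene and sterol enzymes had a higher mean in Ikzf4-/- than in WT 1 to 3, whereas 52.9% of all tested genes did. The median log2 difference of the 17 enzymes was 0.14, with a range from -0.0076 (Dhcr7) to 0.46 (Idi1), beside 0.0060 over all genes. 2 of the 17, Idi1 and Cyp51, had an unadjusted p under 0.05 in the higher direction (1.16% of all genes did). The count depended little on any 1 array: 13 to 16 of the 17 were higher when each array was left out in turn. The enzymes are not independent of each other, as many shifted together between replicates. On WT 1 to 3, 6, 13 and 5 of the 17 lay above the WT mean, and on dKO 1 to 3, 14, 13 and 4. The count thus rests on 3 arrays against 3. The lowest median, 0.082, came without Ikzf4-/- 3, and the median without WT 1 was 0.12.

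Among the mevalonate and isoprenoid enzymes, Idi1 had the largest difference. Idi1 encodes the isomerase that interconverts the basic isoprenoid building blocks. Its log2 signal was 6.02, 6.63 and 6.27 on WT 1 to 3, 6.76, 7.03 and 6.52 on Ikzf4-/- 1 to 3, and 6.55, 6.80 and 6.54 on dKO 1 to 3. WT 2 lay above Ikzf4-/- 3, so the groups overlapped by those arrays, and WT 1 was the lowest of the 9. The difference of Ikzf4-/- from WT was 0.46 ± 0.20 (SE, n = 3 arrays each), or 1.37-fold, with a limma adjusted p = 1. Without WT 1, the array high in B cell and neutrophil markers, it was 0.31. A dimmer probe set of Idi1 gave 0.43. The other mevalonate and isoprenoid enzymes had smaller differences: 0.20 for Hmgcs1 (HMG-CoA synthase), 0.14 for Mvd (mevalonate diphosphate decarboxylase), 0.089 for Mvk (mevalonate kinase), 0.082 for Fdps (farnesyl diphosphate synthase) and 0.022 for Pmvk (phosphomevalonate kinase).

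Cyp51, the lanosterol demethylase, had the smallest p of all the genes described in this comparison. It read 7.05, 7.31 and 6.86 on WT 1 to 3, 7.49, 7.70 and 7.31 on Ikzf4-/- 1 to 3, and 7.31, 7.56 and 7.26 on dKO 1 to 3. WT 2 and Ikzf4-/- 3 met at 7.31, and every other Ikzf4-/- array was above every WT array. The difference was 0.43 ± 0.13 (SE, n = 3 each), or 1.34-fold, with a 95% confidence interval of 0.14 to 0.71 and a limma adjusted p = 1. With the replicate number as a block, limma gave the same difference with adjusted p = 0.412. The p adjusted over all genes therefore missed the threshold in both fits.

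Sqle, squalene epoxidase, a rate-limiting enzyme after HMG-CoA reductase, was the only 1 of the 17 enzymes without overlap between the groups. WT 1 to 3 had 6.84, 7.07 and 6.87, and Ikzf4-/- 1 to 3 had 7.24, 7.24 and 7.14. The lowest Ikzf4-/- array lay above the highest WT array, a pattern found in 3.62% of all tested genes. The log2 difference was 0.28 ± 0.14 (SE, n = 3 each; limma adjusted p = 1). Fdft1, squalene synthase, read 7.56, 7.90 and 7.63 on WT 1 to 3 and 7.91, 8.09 and 7.79 on Ikzf4-/- 1 to 3. WT 2 was above Ikzf4-/- 3, and the difference was 0.24 ± 0.14 (SE, n = 3 each; limma adjusted p = 1). Msmo1 (0.29) and Hsd17b7 (0.26) act on sterol intermediates between lanosterol and cholesterol. Differences of 0.13 and 0.16 were found for Nsdhl and Sc5d, and those of Lss (lanosterol synthase), Tm7sf2, Ebp and Dhcr7 lay between -0.0076 and 0.027.

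**Figure D2:**
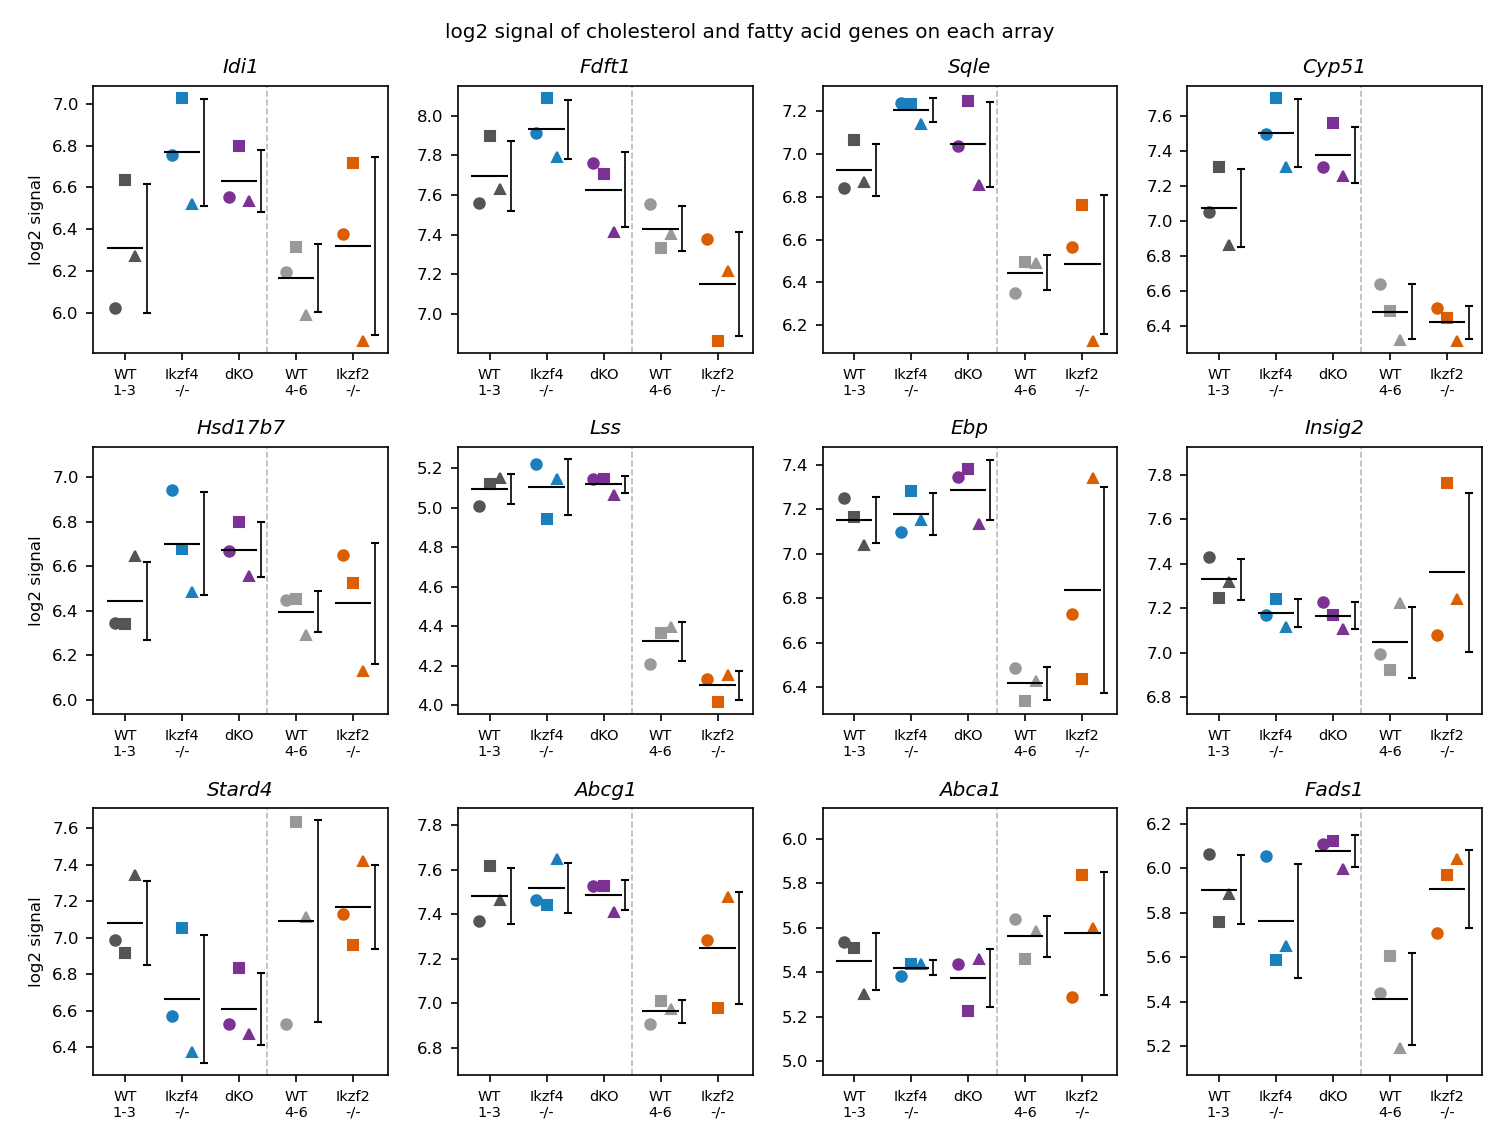
Log2 signal (vertical axes) of 12 cholesterol and fatty acid genes on each of the 15 arrays, by group, with the replicate shown by the symbol, the group mean as a line and the SD as an error bar. The dashed line separates both sets, whose levels are not comparable; all 3 Ikzf4-/- arrays lie above WT 1 to 3 for Sqle, and all 3 Ikzf2-/- arrays lie above WT 4 to 6 for Fads1.

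Because the enzymes stood together in direction, their promoters were read from RefSeq (GRCm38.p6), as the 250 bases before the annotated start. A window was held for 25 of the 33 genes, among them 14 of the 17 synthesis enzymes. The CCAAT box, which binds NF-Y, a known partner of SREBP, was searched as CCAAT on both strands. It was present in all 14 of those synthesis enzymes and in 21 of the 25 genes (84.0%), compared with 37.5% of 27025 genes in the table and 39.9% of 8805 tested genes with a window. The 4 windows printed are those of Cyp51 and Idi1, the enzymes with the smallest p in Ikzf4-/- cells, of Hmgcs1, the only 1 of the 25 genes with the letters TCACNCCAC of a sterol response element on either strand, and of Abca1, the efflux gene with a window. Capitals mark CCAAT on either strand (ATTGG where it reads on the opposite strand) and TCACNCCAC. Cyp51 is on the minus strand at chr5:4104698-4104947, Idi1 on the plus strand at chr13:8885356-8885605, Hmgcs1 on the plus strand at chr13:119690101-119690350 and Abca1 on the minus strand at chr4:53159896-53160145.
Cyp51: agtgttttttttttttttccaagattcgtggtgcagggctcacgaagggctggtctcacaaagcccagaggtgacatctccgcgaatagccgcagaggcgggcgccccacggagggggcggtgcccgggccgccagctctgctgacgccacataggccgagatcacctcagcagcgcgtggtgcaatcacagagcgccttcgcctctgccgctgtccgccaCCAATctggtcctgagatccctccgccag
Idi1: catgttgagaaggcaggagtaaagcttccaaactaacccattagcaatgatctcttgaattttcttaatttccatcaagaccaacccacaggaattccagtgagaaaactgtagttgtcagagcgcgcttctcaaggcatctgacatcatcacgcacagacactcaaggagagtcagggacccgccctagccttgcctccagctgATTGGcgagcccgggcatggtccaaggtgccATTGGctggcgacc
Hmgcs1: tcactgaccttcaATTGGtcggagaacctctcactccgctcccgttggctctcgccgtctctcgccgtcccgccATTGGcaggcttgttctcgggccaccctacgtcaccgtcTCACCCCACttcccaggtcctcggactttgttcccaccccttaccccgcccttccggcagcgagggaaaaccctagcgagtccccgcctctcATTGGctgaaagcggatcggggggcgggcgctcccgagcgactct
Abca1: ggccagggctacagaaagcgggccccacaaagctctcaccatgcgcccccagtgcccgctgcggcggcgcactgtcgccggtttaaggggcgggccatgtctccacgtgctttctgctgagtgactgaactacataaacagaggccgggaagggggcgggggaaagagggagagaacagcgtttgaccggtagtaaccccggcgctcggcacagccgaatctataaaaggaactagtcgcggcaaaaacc

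The Cyp51 window holds 1 CCAAT box, 29 bases before the start, the Idi1 window 2, at 45 and 14 bases, and the Hmgcs1 window 3, at 237, 176 and 45 bases. The Abca1 window holds no CCAAT. TCACNCCAC was found in 7.14% of the synthesis enzymes with a window and in 1.24% of tested genes. The GC box GGGCGG, known to bind Sp1, was in 13 of the 14 synthesis enzymes (92.9%) and in 62.5% of tested genes. The E-box CACGTG was in 3 of the 14 (21.4%) and in 10.1% of tested genes. TGGGAA, the core bound by Ikaros family proteins, was in 4 of the 14 (28.6%) and in 7 of the 25 (28.0%), against 23.2% of tested genes. All motifs were searched on both strands, matches of different motifs may overlap, and a match describes letters in these windows only.

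In dKO cells, which lack Helios as well as Eos, the synthesis enzymes lay nearer to WT. Their median difference from WT 1 to 3 was 0.027, with 11 of 17 higher, where 51.8% of all genes were higher and the median of all genes was 0.0039. The range ran from -0.14 (Dhcr7) to 0.32 (Idi1). The direction of this small median turned with the arrays used: it was -0.018 without dKO 1, -0.011 without WT 3 and 0.11 without dKO 3, with 14 of 17 higher in the last case. Cyp51 had the smallest p of the genes described (0.30 ± 0.13, SE, n = 3 each; limma adjusted p = 1). It was the only 1 of the 30 genes with an unadjusted p under 0.05, in the higher direction, where 2.39% of all genes were. All 3 dKO arrays of Cyp51 were above WT 1 and WT 3, and WT 2 lay within the dKO range. Without WT 3 the difference was 0.20. Hsd17b7, a ketosteroid reductase of the sterol branch, had 6.34, 6.34 and 6.65 on WT 1 to 3 and 6.67, 6.80 and 6.55 on dKO 1 to 3. WT 3 lay within the dKO values, and the difference was 0.23 ± 0.15 (SE; limma adjusted p = 1). Dhcr7, which makes cholesterol in the last step of one branch, had all 3 dKO arrays (6.94, 6.94 and 6.69) below WT 1 to 3 (6.98 to 7.02), with a difference of -0.14 (limma adjusted p = 1).

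dKO was also compared directly with Ikzf4-/- in pairs of the same replicate number. Here 15 of the 17 synthesis enzymes had a lower mean in dKO, with a median of -0.12 and a range from -0.30 (Fdft1) to 0.11 (Ebp), beside 50.6% of all genes lower and a median of -0.0015. All 6 mevalonate and isoprenoid enzymes and 9 of the 11 squalene and sterol enzymes were lower. This comparison uses the same Ikzf4-/- arrays as the one with WT, so its direction is no separate evidence for the one above. At an unadjusted p under 0.05, Fdft1 was lower and Fads1 higher among the 30 genes, and 3.10% and 3.98% of all genes were. Pair 3 carried much of the difference. In pair 3, 15 of 17 enzymes were lower (median -0.24), in pair 1, 12 of 17 (median -0.098), and in pair 2, 9 of 17 (median -0.0081). dKO 3 was the lowest of the 3 dKO arrays for 14 of the 17 enzymes. That array had the highest neutrophil marker mean of the dKO group, 6.06 against 5.30 and 5.35, and its cell cycle mean lay between those of the other dKO arrays. Without dKO 3 the median was -0.079, and 5 of the 17 enzymes were higher.

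Among the 17 synthesis enzymes, Fdft1 had the largest difference in this comparison. dKO 1 to 3 read 7.76, 7.71 and 7.41, and the pairs differed by -0.15, -0.38 and -0.38. All 3 pairs had the same sign, and the mean was -0.30 ± 0.09 (SE, 3 pairs), or 0.810-fold, with a limma adjusted p = 0.585. Its dimmer probe set gave -0.39. Cyp51 differed by -0.19, -0.14 and -0.05 in the 3 pairs, with a mean of -0.13 ± 0.06 (SE; limma adjusted p = 0.749). Hmgcs1, Fdps and Dhcr7 were lower in all 3 pairs as well, and so were the control genes Insig1 and Srebf2. These 7 of 30 genes compare with 12.8% of all genes that were lower in all 3 pairs. Insig1, a sterol-dependent retention factor of SCAP, differed by -0.03, -0.07 and -0.38, and Srebf2, the SREBP most tied to cholesterol synthesis, by -0.04, -0.09 and -0.28. In both, pair 3 was several times further from 0 than the other pairs.

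**Figure D3:**
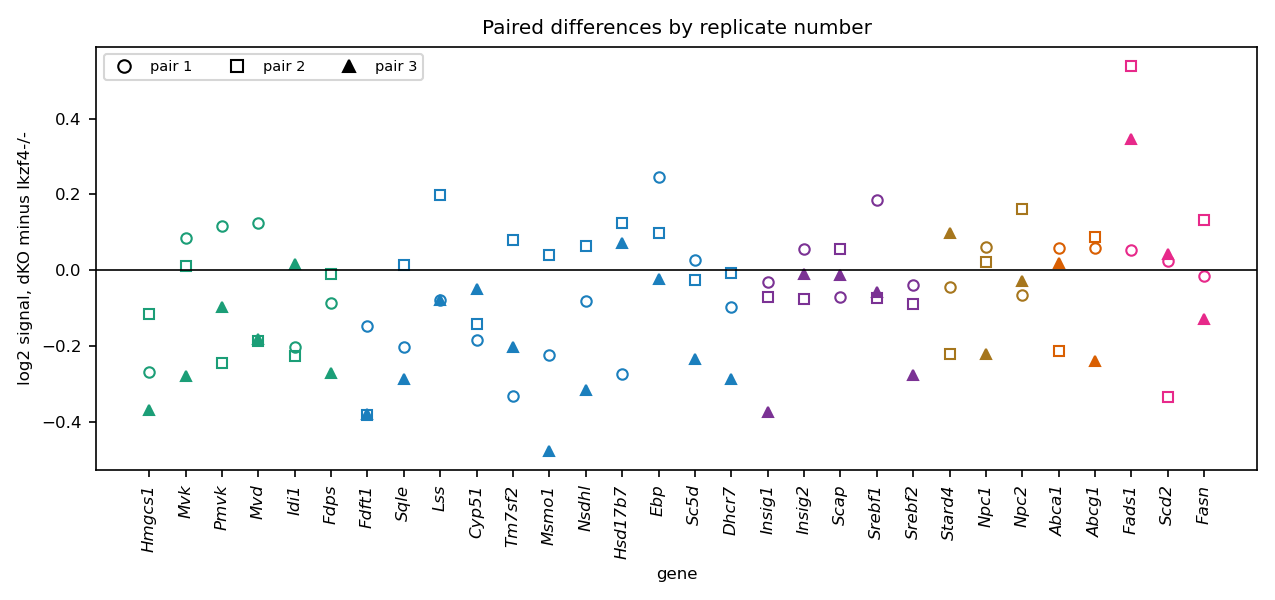
Log2 signal of dKO minus Ikzf4-/- (vertical axis) for each of the 30 tested genes (horizontal axis) in each of the 3 pairs of the same replicate number, with pair 3 as filled symbols. In pair 3, 24 of the 30 genes lie below 0, in pair 1, 18, and in pair 2, 16.

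Ikzf2-/- cells, set against WT 4 to 6, had synthesis enzymes on both sides of WT. Of the 17, 9 were higher and 8 lower, with a median of 0.0077 and a range from -0.28 (Fdft1) to 0.42 (Ebp). Over all genes 54.5% were higher, and the median was 0.020. This split depended on the arrays: with limma array weights 14 of the 17 were higher (median 0.075), and without Ikzf2-/- 1, 4 of the 17 were (median -0.028). Of the 30 genes, 4 had an unadjusted p under 0.05 in the higher direction (Ebp, Insig2, Abcg1 and Fads1) and 1 in the lower (Lss), where 10.9% and 5.45% of all genes did. The 3 Ikzf2-/- arrays differed among themselves. On Ikzf2-/- 1, 13 of the 17 enzymes lay above the WT mean, on Ikzf2-/- 2, 6, and on Ikzf2-/- 3, 7.

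Ebp, the sterol isomerase that also binds emopamil, had 6.49, 6.34 and 6.43 on WT 4 to 6 and 6.73, 6.44 and 7.34 on Ikzf2-/- 1 to 3. Ikzf2-/- 3 stood highest, and Ikzf2-/- 2 lay within the WT range. The difference of 0.42 ± 0.17 (SE, n = 3 each; limma adjusted p = 0.238) was 0.16 without Ikzf2-/- 3, the array high in B cell and neutrophil markers. Lss, which closes the sterol ring system, had 4.21, 4.37 and 4.39 on WT 4 to 6 and 4.13, 4.02 and 4.15 on Ikzf2-/- 1 to 3. All 3 Ikzf2-/- arrays were below all WT arrays, as in 5.50% of all genes, but every 1 of these 6 values lies under the filter level of 4.96, where signals are compressed. The difference was -0.22 ± 0.09 (SE; limma adjusted p = 0.228). Fdft1 read 7.55, 7.33 and 7.40 on WT 4 to 6 and 7.38, 6.86 and 7.22 on Ikzf2-/- 1 to 3. Ikzf2-/- 1 lay within the WT range, and the difference was -0.28 ± 0.14 (SE; limma adjusted p = 0.357). Cyp51, with 6.64, 6.49 and 6.32 in WT and 6.50, 6.45 and 6.32 in Ikzf2-/-, overlapped fully, and its difference of -0.06 had a 95% confidence interval from -0.35 to 0.23.

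The SREBP control genes had small differences in the first set. The median of the 5 was 0.0043 for Ikzf4-/- against WT, -0.13 for dKO against WT, -0.011 for dKO against Ikzf4-/- and -0.026 for Ikzf2-/- against WT. Srebf2 read 8.85, 8.94 and 8.89 on WT 1 to 3, 8.87, 8.95 and 8.89 on Ikzf4-/- 1 to 3 and 8.83, 8.86 and 8.61 on dKO 1 to 3. Ikzf4-/- and WT overlapped fully, and dKO 3 was the lowest array of the first set. The difference of Ikzf4-/- from WT was 0.01, with a 95% confidence interval from -0.26 to 0.28. Insig1 was at 8.38 to 8.44 on WT 1 to 3, 8.35 to 8.45 on Ikzf4-/- and 8.38, 8.38 and 7.98 on dKO 1 to 3, so again only dKO 3 stood apart. Scap, the SREBP escort, and Srebf1, the SREBP gene more tied to fatty acid synthesis, differed by no more than 0.04 in size in each of the 4 comparisons.

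Insig2, the second SCAP retention factor, was the control gene with the widest differences. It had 7.43, 7.25 and 7.32 on WT 1 to 3, 7.17, 7.24 and 7.12 on Ikzf4-/- 1 to 3 and 7.23, 7.17 and 7.10 on dKO 1 to 3. All Ikzf4-/- and all dKO arrays lay below all WT arrays, as 2.92% and 4.22% of all genes did in these comparisons, which share the WT arrays. The differences were -0.15 ± 0.14 for Ikzf4-/- (SE; limma adjusted p = 1) and -0.16 ± 0.14 for dKO (limma adjusted p = 1). In the second set the sign was the opposite: WT 4 to 6 had 6.99, 6.92 and 7.22, and Ikzf2-/- 1 to 3 had 7.08, 7.76 and 7.24. Ikzf2-/- 2 stood highest, Ikzf2-/- 1 lay within the WT range, and the difference of 0.31 ± 0.14 (SE; limma adjusted p = 0.289) was 0.11 without Ikzf2-/- 2.

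Of the intracellular transport genes, Stard4, which carries cholesterol between membranes, differed most. WT 1 to 3 had 6.98, 6.92 and 7.35, Ikzf4-/- 1 to 3 had 6.57, 7.05 and 6.37, and dKO 1 to 3 had 6.53, 6.83 and 6.47. All 3 dKO arrays lay below WT, and Ikzf4-/- 2 lay within the WT range. The difference of dKO from WT was -0.47 ± 0.24 (SE, n = 3 each), or 0.720-fold (limma adjusted p = 1), and that of Ikzf4-/- was -0.42 (limma adjusted p = 1). Its direction was thus opposite to that of most synthesis enzymes of the same arrays. With Dhcr7 and Insig2, Stard4 made 3 of 30 genes with all dKO arrays below all WT arrays, against 4.22% of all genes. In the second set Stard4 ranged from 6.53 to 7.63 over WT 4 to 6, and all Ikzf2-/- arrays lay inside that range. Npc1 and Npc2, which pass cholesterol out of lysosomes, differed from WT by no more than 0.06 in size in the first set. In Ikzf2-/- they differed by 0.06 and -0.15. Npc2 read 9.93, 9.01 and 10.01 on Ikzf2-/- 1 to 3 against 9.76 to 9.83 on WT 4 to 6. The low value lay on Ikzf2-/- 2 alone, and Ikzf2-/- 1 and 3 were above all WT arrays.

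The efflux transporters were set against the synthesis enzymes. Abcg1 had 7.37, 7.62 and 7.46 on WT 1 to 3, 7.46, 7.44 and 7.65 on Ikzf4-/- 1 to 3 and 7.52, 7.53 and 7.41 on dKO 1 to 3. The 3 groups overlapped, and the differences from WT were 0.04 and 0.0046. In the second set WT 4 to 6 read 6.91, 7.01 and 6.97, and Ikzf2-/- 1 to 3 read 7.28, 6.98 and 7.48. Ikzf2-/- 1 and 3 stood above WT, and Ikzf2-/- 2 within it. The difference was 0.28 ± 0.11 (SE, n = 3 each), or 1.22-fold (limma adjusted p = 0.238), and it was 0.17 without Ikzf2-/- 3. Abca1 overlapped between groups in both sets: 5.54, 5.51 and 5.30 on WT 1 to 3, 5.38, 5.44 and 5.44 on Ikzf4-/- and 5.44, 5.23 and 5.46 on dKO, then 5.64, 5.46 and 5.59 on WT 4 to 6 and 5.29, 5.84 and 5.60 on Ikzf2-/-. Its differences from WT were -0.03, -0.07 and 0.01.

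The mean of the 17 synthesis enzymes was expressed per array as a difference from the WT mean of its set, and so was the mean of Abca1 and Abcg1. For synthesis, the WT 1 to 3 arrays themselves spread from -0.049 to 0.082. The Ikzf4-/- arrays were at 0.19, 0.20 and 0.11, all above the WT arrays, and the dKO arrays at 0.093, 0.15 and -0.090, above and below them. The Ikzf2-/- arrays were at 0.12, -0.088 and -0.0078, around WT 4 to 6. For efflux, Ikzf4-/- (-0.042 to 0.077) and dKO (-0.089 to 0.016) stayed near the WT spread of -0.083 to 0.096, while Ikzf2-/- was at 0.024, 0.15 and 0.28 against -0.028 to 0.018 in WT 4 to 6. Synthesis minus efflux was therefore 0.16 ± 0.11 (SD, n = 3) in Ikzf4-/-, 0.088 ± 0.15 in dKO and -0.14 ± 0.20 in Ikzf2-/-, each relative to its WT arrays. The SD was 0.044 in both WT groups. Ikzf4-/- 3 (0.035) and dKO 3 (-0.058) lay within or next to the WT arrays, and Ikzf2-/- 1 (0.093) lay on the other side of 0 from Ikzf2-/- 2 and 3 (-0.23 and -0.28). The balance thus differed between replicates by about as much as between groups, and no test was made of it.

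**Figure D4:**
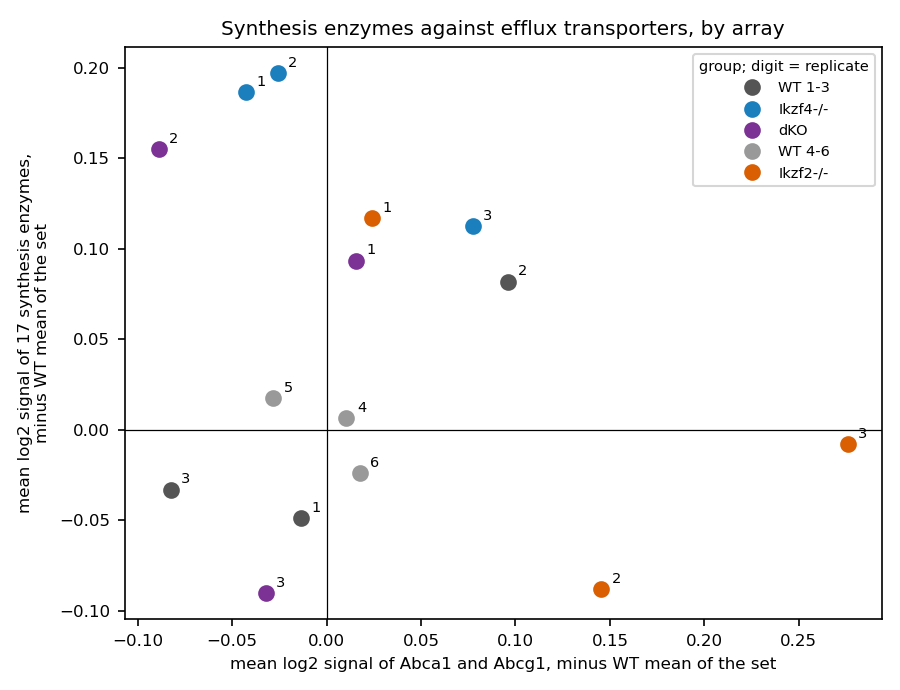
Mean log2 signal of the 17 synthesis enzymes (vertical axis) against that of Abca1 and Abcg1 (horizontal axis) on each array, both minus the WT mean of the set, with the digit giving the replicate. The Ikzf4-/- arrays lie between 0.11 and 0.20 on the vertical axis, above WT 1 to 3, and Ikzf2-/- 3 lies furthest right at 0.28.

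The fatty acid enzymes differed in direction among themselves. Fads1, the delta-5 desaturase of polyunsaturated fatty acid synthesis, had 5.44, 5.61 and 5.19 on WT 4 to 6 and 5.71, 5.97 and 6.04 on Ikzf2-/- 1 to 3. All 3 Ikzf2-/- arrays were above all WT arrays, as in 10.7% of all genes. The difference of 0.49 ± 0.14 (SE, n = 3 each), or 1.41-fold, had the smallest p of the 30 genes in any comparison (limma adjusted p = 0.126), and it was 0.43 without Ikzf2-/- 3. In the first set Fads1 read 6.07, 5.76 and 5.89 on WT 1 to 3, 6.06, 5.59 and 5.65 on Ikzf4-/- 1 to 3 and 6.11, 6.12 and 6.00 on dKO 1 to 3. dKO was above Ikzf4-/- in all 3 pairs, by 0.05, 0.54 and 0.35, as in 13.7% of all genes. The mean was 0.31 ± 0.10 (SE, 3 pairs; limma adjusted p = 0.606), and 0.21 without dKO 2. Fads1 thus had a positive difference in Ikzf2-/- against WT 4 to 6 and in dKO against Ikzf4-/-, which share no array. It was named for its small p in each, and the share of all genes positive in both was not counted. In dKO against WT 1 to 3 the difference was 0.17, and the groups overlapped. Scd2, a stearoyl-CoA desaturase, had 7.04, 4.96 and 6.65 on Ikzf2-/- 1 to 3 against 6.50 to 6.95 on WT 4 to 6. The low value lay on Ikzf2-/- 2 alone, and the difference of -0.46 had an SE of 0.38. Fasn, fatty acid synthase, differed by no more than 0.04 in size in any of the 4 group comparisons.

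The change on Helios loss was compared gene by gene between Eos absent (dKO minus Ikzf4-/-) and Eos present (Ikzf2-/- minus WT 4 to 6). The former lies wholly in the first set and the latter wholly in the second. Eos status and set therefore cannot be told apart in this comparison. None of the 30 genes passed, and the smallest p was that of Abcg1, with a difference of -0.32 ± 0.16 (SE; limma adjusted p = 0.787). Lss (0.24) and Tm7sf2 (-0.30) followed, with the same adjusted p of 0.787 in limma. Of the 17 synthesis enzymes, 15 had a negative value, with a median of -0.10, beside 54.6% negative and a median of -0.022 over all genes. This count reuses the dKO and Ikzf4-/- arrays of the paired comparison, so its direction is no separate evidence. The median was -0.026 without dKO 3 and -0.035 without Ikzf2-/- 1. The efflux genes had a median of -0.19.

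Other genes of sterol and lipid metabolism were taken from a fixed list of 46, of which 37 had a probe set and 31 were tested. None passed the adjusted threshold in any comparison. Of the 31, 12 were higher in Ikzf4-/- than in WT, 15 in dKO than in WT, 18 in dKO than in Ikzf4-/- and 23 in Ikzf2-/- than in WT. Fewer of them were higher than lower in Ikzf4-/-, where nearly all synthesis enzymes were higher. Abca7, a transporter related to Abca1, had 6.41, 6.68 and 6.69 on WT 4 to 6 and 6.89, 6.80 and 7.08 on Ikzf2-/- 1 to 3. The groups did not overlap, as in 10.7% of all genes, and the difference was 0.33 (limma adjusted p = 0.130). In dKO against WT 1 to 3 the Abca7 difference was 0.15. All dKO arrays lay above all WT arrays there, as in 585 of 10964 genes. Abca7 also had the smallest p of this list for dKO against Ikzf4-/- (0.16; limma adjusted p = 0.692), followed by Rxra, the partner receptor of LXR (0.19). Acaca, acetyl-CoA carboxylase, had a difference of -0.28 in Ikzf2-/- (limma adjusted p = 0.292). Apoe, a lipid carrier made by macrophages, differed by -0.69 in Ikzf4-/- (limma adjusted p = 1). It read 8.06 on WT 1, the array high in myeloid markers, and 7.29 and 6.98 on WT 2 and 3. Ikzf4-/- 1 to 3 had 6.89, 6.61 and 6.74, all below WT, as in 2.92% of all genes. The dKO arrays had 6.80 to 7.11. Acss2, an acetyl-CoA synthetase, differed by -0.55 in Ikzf4-/- (limma adjusted p = 1) and -0.54 in dKO. Its values were 6.14, 6.87 and 6.75 on WT 1 to 3, 5.86, 6.85 and 5.40 on Ikzf4-/- and 5.40, 6.48 and 6.25 on dKO. The groups overlapped, and the sign was opposite to that of most synthesis enzymes.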

How the data were processed

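Splenic CD4+CD25+ cells were profiled on 15 arrays from 15 ng of total RNA each, per the labels' protocols. The authors deposited log2 signals. Affymetrix Expression Console 1.3.1 with RMA produced them, per the submitters' processing notes. RMA corrects for background, makes the distributions of jointly processed arrays equal and combines probes into a set value, so that changes of dim genes are compressed. Scanner files were not used here, and no source used here names the build of the array annotation. Array medians lay between 4.82 and 5.01. The number of arrays limits the precision.

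Of 35556 probe sets, 21789 had 1 gene symbol (21698 updated through Entrez identifiers), 1621 had several and 12146 were not listed. The probe set with the highest mean over the 15 arrays was kept per gene (19938 genes, 10964 tested). Idi1 and Fdft1 had a dimmer probe set besides.

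Comparisons were made with limma 3.58.1 in R 4.3.3 (lmFit and eBayes, Benjamini-Hochberg over all genes tested). The 3 knockout comparisons and the difference of Helios effects came from 5 group means on all 15 arrays (10 residual degrees of freedom). Their SE, confidence intervals and p-values rest on a spread pooled over the 5 groups, although Ikzf2-/- had the widest median spread. dKO against Ikzf4-/- came from the 9 arrays of the first set with the replicate number as a block (4 residual degrees of freedom). The labels do not say that numbers mark pairs. Deviations from the group means correlated over genes between same-numbered arrays by 0.428, 0.196 and 0.267 for Ikzf4-/- and dKO, and by 0.138, 0.217 and 0.303 for WT and Ikzf4-/-, all over 0.1. For WT and dKO they were 0.071, 0.045 and 0.173. The main comparisons of dKO and of Ikzf4-/- with WT were both unpaired. For Ikzf4-/- this was so although its correlations with WT were all over 0.1, and the fit with the block was an alternative. In the block fit of 9 arrays, however, WT arrays shared the block of their number and entered the SE. The fit was tested on simulated data. Promoter windows came from a RefSeq table of 32851 windows; a gene with several windows, as 5 of the genes here have, counts as holding a motif where any window does.

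The genes, lists and the 2 arrays noted as high in B cell genes were chosen with earlier results of these data known. Every listed gene was accounted for by role. A gene was given with its value on every array if it passed the adjusted threshold. The same held at an unadjusted p under 0.05 in at least 2 of the 4 group comparisons. It also held for the 3 smallest p of the list in any of these 4. Further genes shown that way were chosen after their values were seen. From the list of other pathway genes, the 2 with the smallest p in each of the 4 group comparisons were named. None was named for the difference of Helios effects. Alternatives tried were the filter on dim genes, the normalization, the choice of probe set, array weights, the samples in the fit, the block and leaving out arrays.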

Additional observations from a re-analysis of the deposited data

How the results depend on the processing

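None of the 30 genes passed the threshold under any of the 27 other settings, and all 320 values of the 14 named differences kept their direction. Of 448 medians and counts, 380 stayed within a tolerance, which is not the same as no change. For a median, the tolerance was the SD of the list mean between replicate arrays. For a count, it was a fixed ratio. The total includes the counts of called genes among the 30, which were none in every setting. The number of genes called over the whole array, which sets the background, was the least stable. For Ikzf2-/- it went from 7 to 2 with no filter, 1 at equal array medians, 35 after a further quantile normalization, 64 with array weights, 0 when the fit held just both groups, 0 against the 6 WT arrays as 1 group and 3 without both arrays high in B cell genes (leaving out 1 array in turn gave 0 to 409). For dKO against WT it went from 7 to 0, 0, 2, 21, 1, 4 and 2 under the same settings, 1 with the replicate block, and 0 to 9 with arrays left out. For dKO against Ikzf4-/- it was 1 with no filter, 6 with array weights and 0 to 5 with arrays left out. For the difference of Helios effects it was 1 with array weights and 0 to 4 with arrays left out, and for Ikzf4-/- 0 to 1. The cause was not tested.

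Pooling all 6 WT arrays mixes both sets, whose separate processing is inferred and not stated in the labels. The synthesis median then became -0.25 for Ikzf2-/-, 0.38 for Ikzf4-/- and 0.23 for dKO, and the efflux median 0.047, 0.10 and 0.067. The stricter filter left Abcg1 as the only efflux gene (0.28 for Ikzf2-/- and -0.32 for the difference). Array weights gave medians of -0.21 (synthesis) and -0.083 (efflux) for the difference. Without the replicate block the synthesis median for dKO against Ikzf4-/- was unchanged at -0.12, and the block changed no call of a gene described. The arrays hold 3 replicates a group, and dim genes such as Lss in the second set are limited by signal near background.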
